A study of Homo sapiens with 16 samples.

Results

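The genes described here are 40 ribosome biogenesis factors, chosen by gene symbol from the 44591 gene rows of the deposited tables and not by their measured values. They were read by RNA sequencing in NCI-H1688, an established line of small cell lung cancer, in 8 groups of 2 libraries after 24 h. Some groups received a single plant alkaloid, which was 1 µM sanguinarine chloride (sanguinarine below), 3 µM cepharanthine or 3 µM evodiamine. Others received 28 µM of the BET bromodomain inhibitor (+)-JQ-1 (JQ1) or 60 nM of panobinostat, which inhibits histone deacetylases. The last treated groups received 1 µM sanguinarine chloride together with 28 µM JQ1 or together with 60 nM panobinostat. The control cells carry the label untreated, while the series design names DMSO. The first table held the 3 alkaloids given alone and the control, and the second the partner drugs and the combinations, with no control of its own. Levels of second-table groups were therefore not compared with the control, since table and drug cannot be told apart. The labels call the duplicates biological, and all come from the same cell line.

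Ribosomes are built in the nucleolus, where RNA polymerase I transcribes the ribosomal RNA precursor. Small nucleolar ribonucleoproteins (snoRNPs) guide the chemical modification of that precursor, the box C/D class for methylation and the box H/ACA class for pseudouridylation. Assembly factors then fold, cut and export the small and large subunits, and many of these genes are well-known targets of the transcription factor MYC. The 40 members were ordered by role into 5 nucleolar scaffold proteins and regulators, 3 box C/D and 3 box H/ACA core proteins, 14 small subunit factors, 10 large subunit factors and 5 genes of the RNA polymerase I machinery.

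Depth was 39996881 to 64060919 counted reads per library, and the lowest count of any member in any library was 177. Every member passed the filter on low counts in every fit. Of the neuroendocrine markers, NEUROD1 was listed at 0 in 16 of 16 libraries, INSM1 stood at no more than 0.0427 RPKM and CHGA at no more than 0.416 RPKM. SYP and NCAM1 moved with the treatment. SYP stood at 14.5 and 11.2 RPKM in sanguinarine with panobinostat, 7.25 and 8.28 RPKM with panobinostat, 2.21 to 2.62 RPKM in the groups with JQ1 and at most 0.286 RPKM in the first table. NCAM1 stood at 11.4 and 8.48 RPKM in sanguinarine with panobinostat, 5.15 and 4.53 RPKM with panobinostat and at most 0.322 RPKM elsewhere. DLL3 (at most 1.87 RPKM) and POU2F3 (at most 1.58 RPKM) were also highest in the groups with panobinostat, while YAP1 stood at 13.6 to 52.0 RPKM and was lowest there. The epithelial gene KRT8 stood at 770.1 to 2299 RPKM and EPCAM at 53.0 to 115 RPKM. The leukocyte gene PTPRC was at or below 0.0293 RPKM and the endothelial gene PECAM1 at or below 0.360 RPKM. The fibroblast gene COL1A1 was not near 0 and moved with the treatment. It stood at 18.9 and 13.8 RPKM in sanguinarine with panobinostat and 11.3 and 9.35 RPKM with panobinostat. In the groups with JQ1 it stood at 6.15 to 7.375 RPKM, and in the first table at 2.72 to 4.32 RPKM. The sample titles of the second table name a combination where the treatment label names a single drug and the reverse, so the labels were checked on HMOX1, a gene already known to be induced by sanguinarine in the first table. HMOX1 stood at 424 and 443 RPKM in the libraries labelled sanguinarine with JQ1, against 6.20 and 6.04 RPKM with JQ1. It stood at 123 and 138 RPKM in those labelled sanguinarine with panobinostat, against 5.65 and 5.53 RPKM with panobinostat, and the groups below follow the treatment labels.

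In control cells the members ranged over the upper part of the transcriptome on a per-length scale. NPM1 (nucleophosmin, a histone chaperone of the nucleolus) averaged 671 ± 8.83 RPKM and NCL (nucleolin, an abundant nucleolar RNA-binding protein) 612 ± 2.87 RPKM (SD, n = 2). The next were FBL at 158 ± 4.27 RPKM and NHP2 at 121 ± 1.35 RPKM. At the low end, UTP20 averaged 11.7 ± 0.294 RPKM and UTP15 8.85 ± 0.262 RPKM, still above 68.6% of protein-coding rows. Together the members took 0.590% and 0.594% of all counted reads in the sanguinarine libraries, 0.675% and 0.708% with cepharanthine, 0.775% and 0.772% with evodiamine, and 0.792% and 0.796% in the control.

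Sanguinarine lowered nearly the whole set. Compared with the control, 38 of 40 members fell and none rose, with a median log2 change of −0.41. On the scaled counts used in the tests, both sanguinarine libraries lay below both control libraries in 40 of 40. The matching share over all genes was not taken, so this count cannot be set against a background. In the deposited RPKM, GAR1, GNL2 and POLR1C overlapped the control, POLR1C at 23.3 and 24.8 RPKM with sanguinarine against 23.4 and 24.3 RPKM. In these bulk samples fewer cells of a type and less RNA per cell cannot be told apart, and all levels are relative to the other genes of a library. Across all genes tested, 19.8% fell and the median change was 0.04. Among the 5815 genes counted at least as highly as the lowest member, a second background added after the first had been seen, 39.8% fell. All changes here are edgeR log2 values with an approximate standard error, adjusted by Benjamini-Hochberg over all genes of the fit, and a gene is called changed at an adjusted p under 0.05. With one fit of all 16 libraries 31 members fell (10.3% of all genes). With scaling to library totals 34 fell (13% of all genes), with a median of −0.30.

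The nucleolar scaffold genes fell in 5 of 5 cases. NCL stood at 1060.2 and 1063 CPM (counts scaled to library size, with TMM factors within the table) with sanguinarine, against 1729.7 and 1700.3 CPM in the control. Its log2 change was −0.69 ± 0.04 (edgeR adjusted p = 3.12e-14). NPM1 stood at 754 and 735 CPM with sanguinarine, against 1226 and 1236 CPM in the control, a change of −0.73 ± 0.05. Neither pair of groups overlapped. The remaining scaffold genes NOLC1, a chaperone of snoRNPs, DDX21, an RNA helicase, and MYBBP1A changed by −0.60, −0.53 and −0.39. Rows for 49 NPM1 pseudogenes held counts equal to 0.843% to 1.76% of the NPM1 count.

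Both snoRNP classes fell, except GAR1. FBL, the methyltransferase of the box C/D particle, stood at 123 and 119.5 CPM with sanguinarine, against 195 and 186 CPM in the control (log2 change −0.65 ± 0.06, edgeR adjusted p = 3.60e-11). Its partners NOP56 and NOP58 changed by −0.53 and −0.22. DKC1 (dyskerin), the pseudouridine synthase of the H/ACA particle, stood at 119.3 and 118 CPM with sanguinarine, against 171 and 172 CPM in the control, a change of −0.54 ± 0.06. NHP2 fell by 0.37 on the log2 scale, whereas GAR1, of the same particle, had −0.14 and did not pass. For FBL and DKC1 alike, both treated libraries were well below both control libraries.

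Small subunit factors fell in 14 of 14 cases and held the largest change of the set. UTP20, a large scaffold protein of the early small subunit precursor, stood at 57.9 and 58.5 CPM with sanguinarine, against 107 and 109.6 CPM in the control. Its log2 change was −0.90 ± 0.07 (edgeR adjusted p = 9.25e-13). The helicase gene DDX10 stood at 50.8 and 48.9 CPM with sanguinarine, against 87.3 and 81.1 CPM in the control, a change of −0.76 ± 0.07. Both sanguinarine libraries of each gene were clearly lower than both controls. The smallest change among the 14 was that of NOB1, the nuclease that makes the final cut of the small subunit RNA, at −0.24.

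Large subunit factors fell in 10 of 10 cases, with a median of −0.37. BOP1, a member of the PeBoW complex, changed by −0.65, and its partners PES1 and WDR12 by −0.36 and −0.33. NOP16 changed by −0.59, and the GTPase genes GNL3 (nucleostemin) and GNL2 by −0.44 and −0.17. Of the polymerase I genes, POLR1B changed by −0.35, POLR1A by −0.34, UBTF by −0.34 and RRN3 by −0.24. POLR1A, the largest catalytic subunit, stood at 142 and 143 CPM with sanguinarine, against 182 and 180.1 CPM in the control. UBTF, which binds ribosomal RNA genes, stood at 109.4 and 114 CPM with sanguinarine, against 146 and 138 CPM in the control. POLR1C, shared with RNA polymerase III, had −0.10 and did not pass. The polymerase genes were thus below the control in both libraries but by less than the scaffold genes, a contrast between roles that was not tested.

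**Figure D1:**
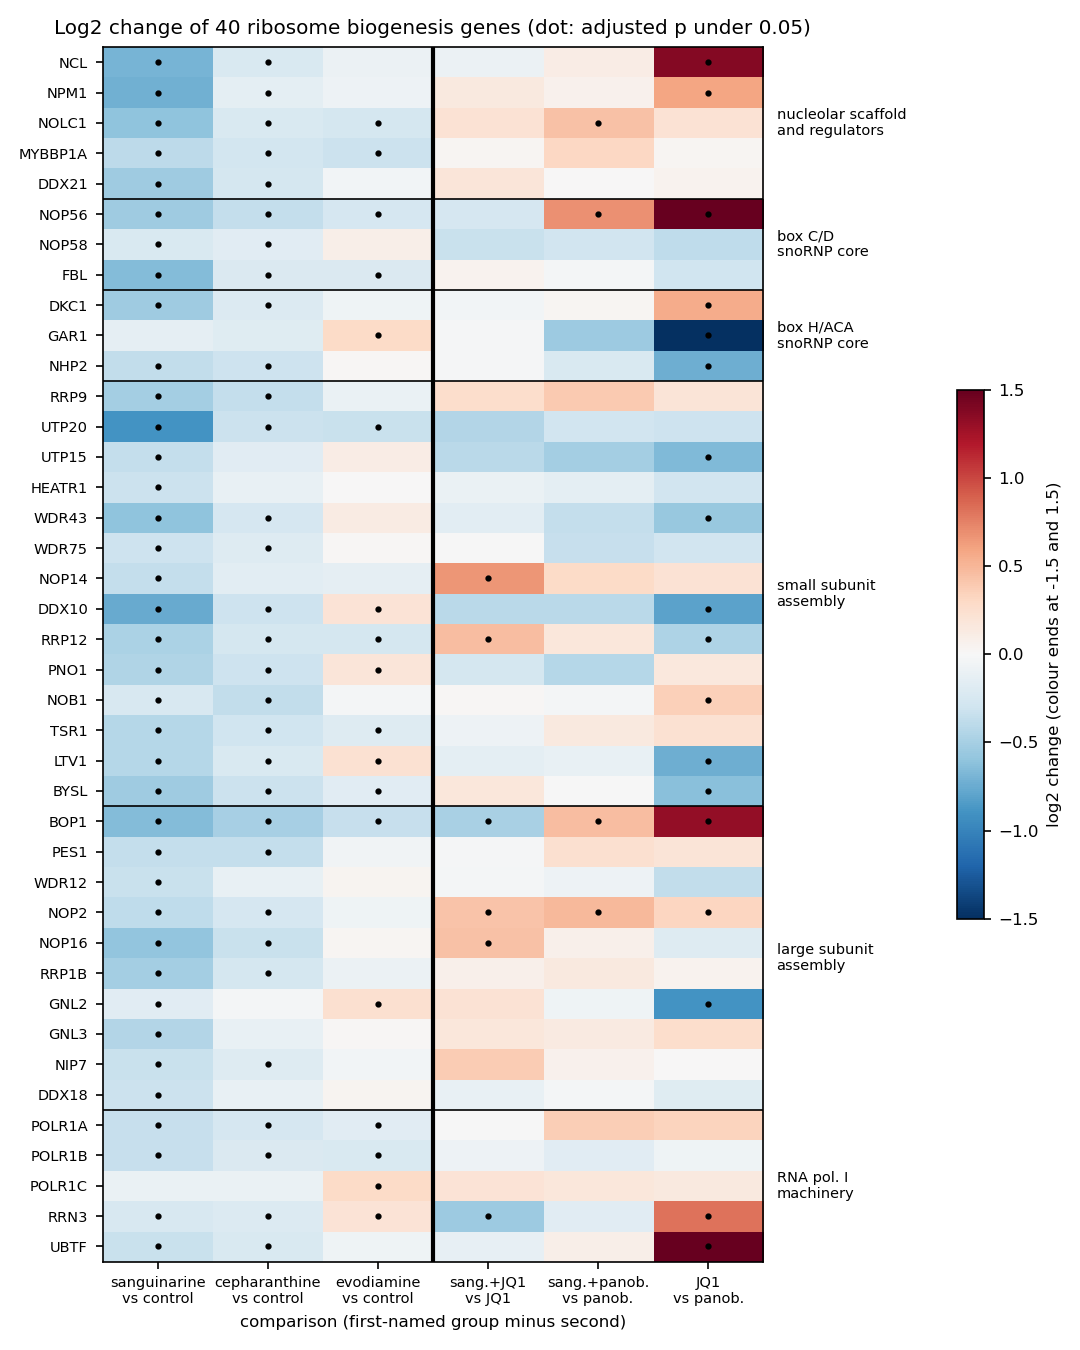
Heat map of the log2 change (colour, first-named group minus second, colour ending at −1.5 and 1.5) of the 40 members (rows, by role) in 6 comparisons (columns). Dots mark an adjusted p under 0.05. The sanguinarine column is blue for all 40 members with 38 dots, while both columns of sanguinarine added to a partner drug hold mixed colours and few dots.

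Promoter windows from RefSeq (GRCh38.p14, 250 bases before to 50 after the gene start) were matched for 34 of the 40 members. They were searched on both strands for the E-box CACGTG, the sequence MYC and MAX are known to bind, the GC box GGGCGG and the ETS motif CCGGAAG. The motifs were searched separately, and matches of different motifs may share letters. The E-box was present in 12 of 34 member windows (35.3%), against 1407 of 15843 windows of protein-coding genes (8.88%). The GC box was in 76.5% of member windows, against 58.5% of all, and the ETS motif in 32.4%, against 14.2%. Members with the E-box had a median log2 change with sanguinarine of −0.44 and those without it −0.35, with ranges of −0.90 to −0.17 and −0.76 to −0.10 that overlap over most of their length. Windows are printed for the largest falls with the E-box, UTP20 (chr12:101279855-101280154, plus strand) and FBL (chr19:39846330-39846629, minus strand), and for the largest without it, DDX10 (chr11:108664819-108665118, plus strand) and NPM1 (chr5:171387599-171387898, plus strand). Each runs 5′ to 3′ along its gene, and capitals mark the E-box.
UTP20: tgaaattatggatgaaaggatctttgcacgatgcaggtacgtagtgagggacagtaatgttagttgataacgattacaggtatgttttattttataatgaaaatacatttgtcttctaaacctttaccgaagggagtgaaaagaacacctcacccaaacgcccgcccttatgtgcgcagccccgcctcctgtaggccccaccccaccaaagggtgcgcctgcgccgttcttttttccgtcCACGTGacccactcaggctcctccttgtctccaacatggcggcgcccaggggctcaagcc
FBL: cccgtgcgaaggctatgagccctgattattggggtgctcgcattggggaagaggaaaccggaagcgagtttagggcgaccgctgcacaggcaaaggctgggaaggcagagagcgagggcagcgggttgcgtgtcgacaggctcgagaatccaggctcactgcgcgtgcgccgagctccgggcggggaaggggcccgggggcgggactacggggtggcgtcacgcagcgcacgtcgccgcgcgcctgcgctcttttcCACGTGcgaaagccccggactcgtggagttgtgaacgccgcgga
DDX10: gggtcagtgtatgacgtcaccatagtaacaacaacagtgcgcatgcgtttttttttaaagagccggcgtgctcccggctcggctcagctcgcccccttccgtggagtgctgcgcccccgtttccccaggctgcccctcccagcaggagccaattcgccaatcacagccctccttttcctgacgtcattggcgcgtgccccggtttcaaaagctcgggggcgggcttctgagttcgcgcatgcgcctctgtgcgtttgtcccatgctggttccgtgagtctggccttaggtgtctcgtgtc
NPM1: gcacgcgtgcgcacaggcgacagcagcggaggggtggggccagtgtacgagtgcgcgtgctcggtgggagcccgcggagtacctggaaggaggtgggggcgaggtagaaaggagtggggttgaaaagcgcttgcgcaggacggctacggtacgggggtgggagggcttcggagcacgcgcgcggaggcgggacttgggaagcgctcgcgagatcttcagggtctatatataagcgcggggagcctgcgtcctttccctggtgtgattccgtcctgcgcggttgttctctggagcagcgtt
With the start base as position 1 and the base before it as −1, the E-box of UTP20 begins at −10 and that of FBL at 7. A match describes letters in a window and is not a site shown to be bound in these cells.

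With cepharanthine the members were also lower, by less. Compared with the control, 31 of 40 fell and none rose, with a median log2 change of −0.23, against 7.30% lower among all genes and 14.8% among genes counted at least as highly as the lowest member. In 38 of 40 both cepharanthine libraries lay below both control libraries on the scaled counts. For this too the share over all genes was not taken, so it has no background to be read against. The 31 calls depended on the fit, since 4 members fell in one fit of all 16 libraries, in which 0.957% of all genes fell. The common coefficient of variation between replicates was 0.0595 in the fit of the first table, 0.140 in that of the second and 0.111 in the fit of all libraries.

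BOP1 had the largest change with cepharanthine, at 73.8 and 71.2 CPM against 104.9 and 100.5 CPM in the control (log2 change −0.50 ± 0.06, edgeR adjusted p = 3.50e-07). NOB1 stood at 74.7 and 73.8 CPM with cepharanthine, against 95.3 and 96.6 CPM in the control, and changed by −0.37 ± 0.06. RRP9, a protein of the U3 snoRNP, stood at 57.3 and 55.2 CPM with cepharanthine, against 73.7 and 71.0 CPM in the control, and changed by −0.36 ± 0.07. These 3 genes had no overlap between the groups. NCL stood at 1431 and 1494 CPM with cepharanthine, against 1729.7 and 1700.3 CPM in the control. NPM1 stood at 1060.3 and 1170.0 CPM with cepharanthine, against 1226 and 1236 CPM in the control. Changes were smaller for the scaffold genes NCL (−0.23) and NPM1 (−0.14), for FBL (−0.21) and DKC1 (−0.20), and for POLR1A (−0.25) and UBTF (−0.23), all of which passed. Those that did not pass were GAR1, UTP15, HEATR1, NOP14, WDR12, GNL2, GNL3, DDX18 and POLR1C.

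Evodiamine moved the members in both directions. Compared with the control, 7 rose, 11 fell and 22 did not pass, with a median log2 change of −0.05, and the 18 called of 40 set beside 29.7% changed among all genes and 44.2% among genes counted at least as highly as the lowest member are near the background. In one fit of all 16 libraries 3 fell and none rose, beside 11.4% of all genes changed. Leaving out any 1 library of these groups also lowered the number of calls.

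The largest falls with evodiamine were those of BOP1, UTP20 and MYBBP1A. BOP1 stood at 82.3 and 78.8 CPM with evodiamine, against 104.9 and 100.5 CPM in the control (log2 change −0.35 ± 0.06, edgeR adjusted p = 5.54e-05). UTP20 stood at 87.3 and 85.0 CPM with evodiamine, against 107 and 109.6 CPM in the control (−0.33 ± 0.06). MYBBP1A stood at 212 CPM in both evodiamine libraries, against 272 and 259 CPM in the control (−0.33 ± 0.05). Each of these genes was lower in both treated libraries than in either control.

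The largest rises with evodiamine were those of GAR1, POLR1C and GNL2. GAR1 stood at 43.4 and 44.2 CPM with evodiamine, against 35.5 and 36.3 CPM in the control (log2 change 0.29 ± 0.08, edgeR adjusted p = 0.00373). POLR1C stood at 43.2 and 45.6 CPM with evodiamine, against 36.0 and 36.9 CPM in the control (0.28 ± 0.07). GNL2 stood at 108 and 117 CPM with evodiamine, against 92.6 and 97.8 CPM in the control (0.23 ± 0.06). All 3 were higher in both evodiamine libraries. LTV1 (0.23), RRN3 (0.21), DDX10 (0.20) and PNO1 (0.18) also rose. NCL stood at 1584 and 1642 CPM with evodiamine, against 1729.7 and 1700.3 CPM in the control, without overlap. NCL (−0.09), NPM1 (−0.08), DKC1 (−0.07) and UBTF (−0.06) did not pass, while FBL (−0.21) and POLR1A (−0.16) fell.

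**Figure D2:**
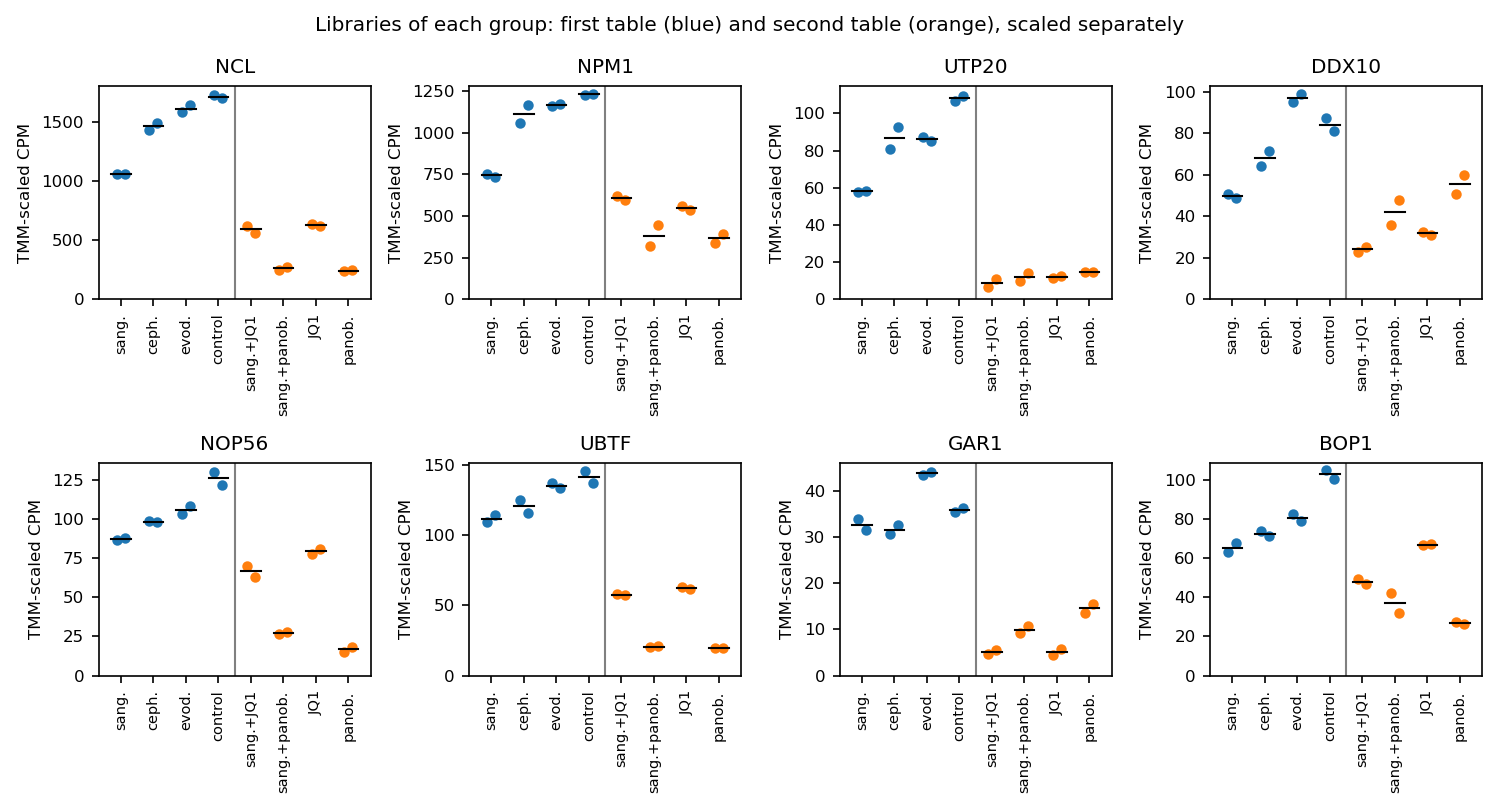
TMM-scaled CPM (vertical axis, linear from 0) of 8 members in each library (points) and group mean (lines). The first table (blue) and the second (orange) were scaled separately and are parted by a line. The sanguinarine points of NCL, NPM1, UTP20 and DDX10 lie below all other points of the first table, and UBTF and NOP56 lie lower with panobinostat than with JQ1 whether or not sanguinarine was added.

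Setting the alkaloids against each other, sanguinarine at 1 µM was lower than evodiamine at 3 µM for 38 of 40 members and higher for none, beside 19.6% lower among all genes and 38.3% among genes counted at least as highly as the lowest member. DDX10 differed by −0.96 ± 0.07 (edgeR adjusted p = 3.19e-13), at 50.8 and 48.9 CPM with sanguinarine against 94.9 and 99.0 CPM with evodiamine. WDR43 differed by −0.73 ± 0.06 and LTV1 by −0.65 ± 0.07. WDR43, a small subunit factor, stood at 103 and 101 CPM with sanguinarine, against 168 and 171 CPM with evodiamine. LTV1 stood at 42.6 and 40.1 CPM with sanguinarine, against 62.0 and 68.0 CPM with evodiamine. The doses of sanguinarine and evodiamine differ, so the differences belong to these doses.

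Sanguinarine was lower than cepharanthine (3 µM) for 21 members and higher for none, beside 17.7% and 36.2% lower in the same backgrounds. NPM1 differed by −0.58 ± 0.05 (edgeR adjusted p = 2.06e-11), UTP20 by −0.58 ± 0.07 and NCL by −0.46 ± 0.04. The difference for POLR1A was −0.09, with a 95% interval of −0.21 to 0.02, and that for UBTF was −0.11 (−0.23 to 0.01), neither of which passed. With library totals 11 were lower and 1 higher (11.4% and 22.9% of all genes), in one fit of all 16 libraries 8 were lower (7.15%), and without sanguinarine replicate 1 the count was 13 (12.7%).

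Cepharanthine and evodiamine were given at the same 3 µM. Cepharanthine was lower for 23 members and higher for none, beside 15.1% and 22.6% in the same backgrounds, and 10 were lower in one fit of all 16 libraries (5.79% of all genes). DDX10 differed by −0.51 ± 0.07 (edgeR adjusted p = 1.96e-07), at 64.05 and 71.6 CPM with cepharanthine against 94.9 and 99.0 CPM with evodiamine. PNO1, which acts with NOB1 on the small subunit precursor, differed by −0.49 ± 0.07, at 51.7 and 56.6 CPM with cepharanthine against 74.9 and 77.2 CPM with evodiamine. GAR1 differed by −0.47 ± 0.08, at 30.6 and 32.6 CPM with cepharanthine against 43.4 and 44.2 CPM with evodiamine. These 3 genes did not overlap between the alkaloids. The difference for FBL had a 95% interval of −0.11 to 0.11 and that for NPM1 one of −0.16 to 0.03, and neither passed.

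When sanguinarine was added to JQ1 the general fall was not seen. Standard errors of the members were 0.123 to 0.231 here, against 0.044 to 0.076 for sanguinarine alone, so smaller changes could be missed. Compared with JQ1 alone, 4 members rose, 2 fell and 34 did not pass, with a median log2 change of −0.02, beside 23.6% changed among all genes and 28.7% among the 10627 genes counted at least as highly as the lowest member, so the share called is not above the background. NOP14, a small subunit factor, stood at 80.8 and 80.1 CPM in the combination, against 53.2 and 48.5 CPM with JQ1 (0.66 ± 0.13, edgeR adjusted p = 0.00188). RRN3, the initiation factor that links polymerase I to growth signals, stood at 61.2 and 54.9 CPM in the combination, against 87.7 and 81.9 CPM with JQ1 (−0.55 ± 0.15). BOP1 stood at 49.1 and 46.6 CPM in the combination, against 66.8 and 67.1 CPM with JQ1 (−0.48 ± 0.15). None of these 3 pairs overlapped. RRP12 (0.46), NOP2 (0.43) and NOP16 (0.43) also rose.

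The other members by role gave small values with added sanguinarine. NCL had −0.09, NPM1 0.14, FBL 0.05, DKC1 −0.05 and UBTF −0.12, and none of these passed. POLR1A had a 95% interval of −0.30 to 0.30. NPM1 stood at 620 and 595 CPM in the combination, against 562 and 539 CPM with JQ1. FBL stood at 78.0 and 77.3 CPM in the combination, against 74.8 and 74.6 CPM with JQ1. Their fall with sanguinarine alone was thus not seen here, where both combination libraries of either gene stood slightly above both JQ1 libraries. RRN3 overlaps the row of PDXDC1 on the other strand, and 3 RRN3 pseudogene rows held counts equal to 6.65% to 13% of its own. Leaving out any 1 library of these groups lowered the number of calls. Without both libraries of sanguinarine with panobinostat, an alternative chosen after seeing the data, there were 11 (40% of all genes changed), fitting only the groups compared gave 12 (42.5%) and one fit of all 16 libraries gave 11, 5 higher and 6 lower (30.0%).

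When sanguinarine was added to panobinostat most members were not called changed. Their standard errors were 0.123 to 0.228, against 0.044 to 0.076 for sanguinarine alone, so smaller changes could be missed here too. Compared with panobinostat alone, 4 of 40 rose, near the background of 6.77% higher among all genes and 7.10% among genes counted at least as highly as the lowest member. None fell, beside 8.35% lower among all genes, and the median log2 change was 0.02. NOP56 stood at 26.7 and 27.5 CPM in the combination, against 15.2 and 18.4 CPM with panobinostat (0.69 ± 0.14, edgeR adjusted p = 0.00594). NOP2, a methyltransferase of the large subunit RNA, stood at 62.4 and 60.2 CPM in the combination, against 44.2 and 43.4 CPM with panobinostat (0.49 ± 0.13). BOP1 stood at 42.4 and 31.8 CPM in the combination, against 27.3 and 26.5 CPM with panobinostat (0.46 ± 0.15), and NOLC1 rose by 0.44. These groups did not overlap, but the combination duplicates of BOP1 were far apart.

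The duplicates of sanguinarine with panobinostat differed most of all groups, and the result moved with them. Over the 40 members the median absolute log2 difference between duplicates was 0.29 there and 0.03 to 0.10 in the other groups. In this group 28 of 40 were lower in replicate 1, a count not particular to it. It was 27 of 40 with cepharanthine, with evodiamine and with panobinostat alone. Without replicate 2 of this group 8 members were higher and 14 lower than with panobinostat, beside 12.9% higher and 19.1% lower among all genes. Without replicate 1 there were 6 higher and none lower, beside 6.96% and 9.51%. Without panobinostat replicate 1 there were 0 calls and without panobinostat replicate 2 there was 1 (4.43% and 1.40% of all genes changed). One fit of all 16 libraries gave 8 higher and 4 lower (11.5% and 11.4%), library totals 7 higher (11.9%), and only the groups compared 1 higher (5.24%).

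**Figure D3:**
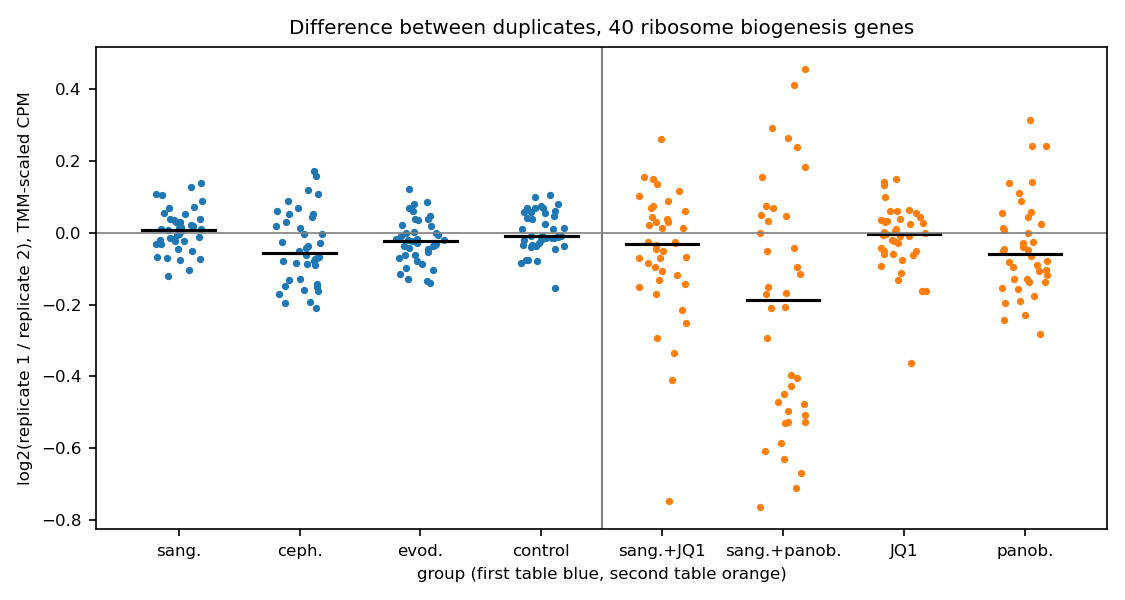
Log2 ratio of replicate 1 over replicate 2 (vertical axis, TMM-scaled CPM) for each of the 40 members (points) with the median (line) by group. Sanguinarine with panobinostat spreads most widely, from −0.76 for WDR75 to 0.46, and the first-table groups (blue) stay within 0.21 of 0.

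JQ1 and panobinostat left the members at different levels, in both directions. Compared with panobinostat, 9 members were higher and 9 lower with JQ1. Beside this, 53.8% changed among all genes and 61.1% among genes counted at least as highly as the lowest member. The share called is thus not above the background in the main fit, but it was above that of all genes in 2 other fits given below. SYP, NCAM1 and COL1A1, given above, also differed between these groups and between the combinations, and their part in the comparisons with panobinostat was not tested. NOP56 stood at 77.7 and 80.9 CPM with JQ1, against 15.2 and 18.4 CPM with panobinostat (2.24 ± 0.15, edgeR adjusted p = 8.46e-09). UBTF stood at 63.5 and 62.1 CPM with JQ1, against 19.7 and 19.5 CPM with panobinostat (1.68 ± 0.13). GAR1 was lower, at 4.49 and 5.77 CPM with JQ1 against 13.6 and 15.4 CPM with panobinostat (−1.502 ± 0.20).

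By role, JQ1 against panobinostat gave 2 scaffold genes higher and none lower, 2 polymerase I genes higher and none lower, and 1 small subunit factor higher and 6 lower. NCL stood at 635 and 622 CPM with JQ1, against 239 and 245 CPM with panobinostat (1.38 ± 0.13). BOP1 (1.31), RRN3 (0.81), NPM1 (0.59) and DKC1 (0.56) were higher as well, whereas GNL2 (−0.89), DDX10 (−0.80), LTV1 (−0.73) and NHP2 (−0.73) were lower. Within the H/ACA particle DKC1 and GAR1 thus lay on opposite sides. FBL (−0.29) and POLR1A (0.34) did not pass. NOP56 overlaps IDH3B on the other strand, whose own row stood at 16.3 CPM in both JQ1 libraries and 15.6 and 16.6 CPM with panobinostat (per library total), and it contains 5 snoRNA rows. Fitting only the groups compared gave 31 calls of 40, beside 68.7% of all genes changed. Leaving out both libraries of sanguinarine with panobinostat gave 30 of 40, beside 65.0%. In both fits the share of members called was above that of all genes, and the share among highly counted genes was not taken. With library totals the split was 7 higher and 11 lower, beside 20% higher and 33.4% lower among all genes.

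The partner drugs were also compared with sanguinarine present in both arms. In sanguinarine with JQ1 compared with sanguinarine with panobinostat, 9 members were higher and 8 lower, beside 50.5% and 56.5% changed in the same backgrounds, so the share called is not above them. UBTF stood at 58.2 and 57.4 CPM in sanguinarine with JQ1, against 20.7 and 20.8 CPM in sanguinarine with panobinostat (1.48 ± 0.13, edgeR adjusted p = 2.94e-07). NOP56 stood at 69.9 and 63.0 CPM in sanguinarine with JQ1, against 26.7 and 27.5 CPM in sanguinarine with panobinostat (1.29 ± 0.14). NCL stood at 620 and 564 CPM in sanguinarine with JQ1, against 245 and 276 CPM in sanguinarine with panobinostat (1.18 ± 0.13). These genes were higher with JQ1 in the mixture, and their groups did not overlap. BOP1 stood at 49.1 and 46.6 CPM in sanguinarine with JQ1, against 42.4 and 31.8 CPM in sanguinarine with panobinostat (0.37). GAR1 was lower, at 4.62 and 5.50 CPM in sanguinarine with JQ1 against 9.25 and 10.7 CPM in sanguinarine with panobinostat (−0.98 ± 0.20). DDX10 stood at 22.8 and 25.2 CPM in sanguinarine with JQ1, against 35.7 and 48.0 CPM in sanguinarine with panobinostat (−0.80 ± 0.16). LTV1 stood at 9.73 and 11.3 CPM in sanguinarine with JQ1, against 14.1 and 21.9 CPM in sanguinarine with panobinostat (−0.77 ± 0.20). The last 2 genes had widely spaced libraries in sanguinarine with panobinostat but no overlap. With only the groups compared in the fit 10 were called, beside 44.4% of all genes changed. Library totals gave 5 higher and 16 lower, beside 16.8% higher and 33.2% lower among all genes.

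The effect of sanguinarine was then compared between cells with and without a partner drug. The contrast takes the change from partner to combination and subtracts the change from control to sanguinarine, in one fit of all 16 libraries, so that a constant log2 offset between the tables cancels. With JQ1 as partner, 17 members had a higher change and none a lower one, with a median difference of 0.37 (−0.01 over all genes), beside 9.84% higher among all genes and 16.2% among the 7658 genes counted at least as highly as the lowest member. With panobinostat, 21 were higher and none lower, with a median of 0.60 (−0.02 over all genes), beside 7.91% and 14.4%. The first table had no counts for 164 rows that reached 1 CPM in every second-table library, and 164 of these overlapped another row, against 55.8% of the 17521 rows that reached 1 CPM anywhere. Overlapping genes were thus not counted alike in both tables, and the part of this in the contrasts was not tested. Leaving out both libraries of sanguinarine with panobinostat, chosen after seeing the data, gave 26 higher and 1 lower for the JQ1 contrast, beside 15.0% and 13.8% of all genes. The panobinostat contrast gave 32 higher without replicate 1 of that group, beside 9.51%.

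NOP16, NOP14 and RRP12 led the contrast with JQ1. NOP16 had 19.6 and 19.1 CPM with sanguinarine and JQ1, against 15.1 and 13.6 CPM with JQ1, whereas it had 42.3 and 38.5 CPM with sanguinarine, against 62.3 and 59.8 CPM in the control. The difference of these changes was 1.04 ± 0.15 (edgeR adjusted p = 5.27e-05). NOP14 differed by 1.03 ± 0.13, with 110.4 and 112 CPM with sanguinarine against 142 CPM in both controls, and RRP12 by 0.95 ± 0.13. In each of the 3 genes both combination libraries stood above both partner libraries, while both sanguinarine libraries stood below both controls. RRP12 had 46.2 and 44.8 CPM with sanguinarine and JQ1, against 33.0 and 33.2 CPM with JQ1.

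NOP56, BOP1 and NOLC1 led the contrast with panobinostat. The differences were 1.29 ± 0.14 for NOP56 (edgeR adjusted p = 5.04e-06), 1.19 ± 0.16 for BOP1 and 1.11 ± 0.11 for NOLC1. NOLC1 had 128 and 137 CPM with sanguinarine and panobinostat, against 100.2 and 96.2 CPM with panobinostat, whereas it had 284 and 290 CPM with sanguinarine, against 433 and 438 CPM in the control. Among the remaining members followed in every comparison, NPM1 differed by 0.88 with JQ1 and 0.86 with panobinostat, FBL by 0.72 and 0.70, NCL by 0.62 and 0.87, and DKC1 by 0.50 and 0.64, all of which passed. POLR1A (0.78) and UBTF (0.50) passed with panobinostat, and with JQ1 they had 0.35 and 0.23 and did not pass. The scaffold genes passed in 4 of 5 cases with JQ1 and in 5 of 5 with panobinostat, and the polymerase I genes in 0 of 5 and 2 of 5.

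**Figure D4:**
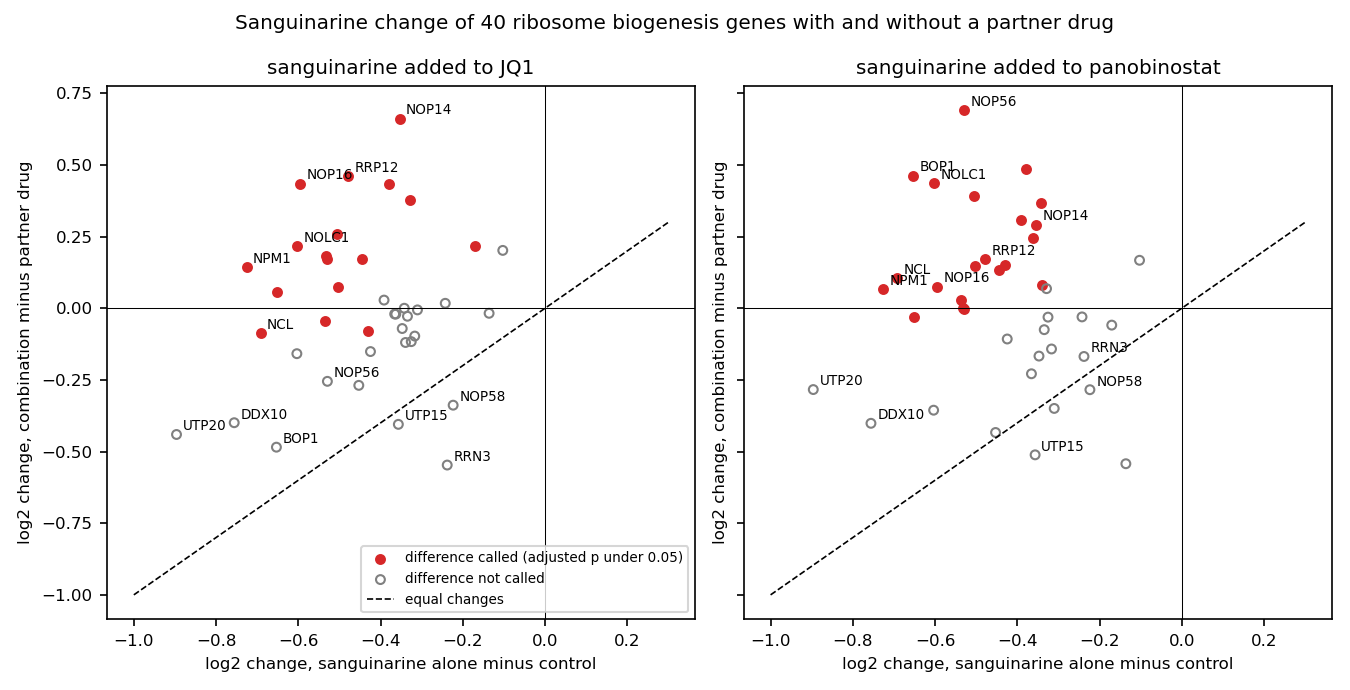
Log2 change with sanguinarine alone minus control (horizontal axis) and on top of a partner drug (vertical axis, combination minus partner) for the 40 members, with JQ1 at left and panobinostat at right. Filled points have an adjusted p under 0.05 for the difference, the dashed line marks equal changes, and 17 filled points at left and 21 at right all lie above it.

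Between the partners, the effect of added sanguinarine differed for 2 members, both lower with JQ1 than with panobinostat, beside 6.02% changed among all genes and 7.96% among genes counted at least as highly as the lowest member, so the share called is not above the background. They were BOP1 (−0.95 ± 0.21, edgeR adjusted p = 0.0139) and NOP56 (−0.95 ± 0.20). BOP1 was lower in the combination than with JQ1 and higher in the combination than with panobinostat. There were 0 calls without JQ1 replicate 1, JQ1 replicate 2, panobinostat replicate 1 or sanguinarine with JQ1 replicate 2, and 1 without panobinostat replicate 2 or sanguinarine with JQ1 replicate 1. Without replicate 2 of sanguinarine with panobinostat there were 5 higher and 3 lower, beside 12.7% and 6.25% of all genes. The values for NPM1 (0.08), FBL (0.08), DKC1 (−0.08), NCL (−0.19), UBTF (−0.20) and POLR1A (−0.37) did not pass.

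Other genes of the pathway, 101 in all outside the members, were read in the same fits. With sanguinarine 75 fell, 3 rose and 23 did not pass, with a median log2 change of −0.33, beside 19.8% lower and 22% higher among all genes. With cepharanthine 41 fell and 3 rose (median −0.18), beside 7.30% and 9.40%. With evodiamine 21 fell and 10 rose (median −0.02), which is at the background of 29.7% changed. NOL12, a large subunit factor, had the largest change of these with sanguinarine, at 7.90 and 7.01 CPM against 13.7 and 12.3 CPM in the control (−0.80 ± 0.12). POLR1G, a polymerase I subunit, had the largest with evodiamine, at −0.78 ± 0.08. On top of JQ1, 3 rose and 6 fell, beside 23.6% of all genes changed, and on top of panobinostat 6 rose and 5 fell, beside 15.1%. NOC3L, a large subunit factor, fell in both, by 0.91 ± 0.18 on the log2 scale with JQ1 and by 0.97 ± 0.17 with panobinostat. DDX47, a small subunit helicase, fell with sanguinarine on top of JQ1, at 14.7 and 14.9 CPM in the combination against 27.8 and 28.7 CPM with JQ1 (−0.94 ± 0.16). In the contrasts with sanguinarine alone, 32 were higher and 1 lower with JQ1, led by NLE1 (1.28 ± 0.21), beside 9.84% and 8.24% of all genes. With panobinostat 39 were higher and 1 lower, led by FTSJ3 (1.23 ± 0.16) and RRP1 (1.08 ± 0.13), beside 7.91% and 8.65%. JQ1 against panobinostat gave 19 higher and 36 lower of 101, at the background of 53.8% changed, and the largest was DDX47 (−2.21 ± 0.16). The combinations gave 13 higher and 30 lower, below the background of 50.5%, led by DDX47 (−2.44 ± 0.16) and POLR1F (−1.66 ± 0.17). Between the alkaloids, TAF1A was lower with sanguinarine than with cepharanthine (−0.57 ± 0.13), NOC3L lower with sanguinarine than with evodiamine (−0.71 ± 0.09) and POLR1H lower with cepharanthine than with evodiamine (−0.52 ± 0.10).

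MYC was not called changed with sanguinarine. With sanguinarine MYC stood at 300.4 and 299 CPM, against 321 and 308 CPM in the control (−0.07, 95% interval −0.18 to 0.04, edgeR adjusted p = 0.313). With cepharanthine it changed by −0.18 and with evodiamine by −0.58, both of which passed. MXD4, which encodes a MAX partner known to oppose MYC, rose with sanguinarine, at 41.1 and 41.2 CPM against 16.4 and 15.0 CPM in the control (1.39 ± 0.09). Its relatives went both ways with sanguinarine. MXD1 averaged 32.9 CPM with sanguinarine against 20.0 CPM in the control, and MXI1 13.1 against 8.28 CPM. MXD3 was lower, at a mean of 8.77 CPM with sanguinarine against 13.6 CPM in the control. MXD4 rose with cepharanthine by 0.65 ± 0.09, as did MXD1 by 0.78 ± 0.09, and MXD3 also fell with evodiamine (−0.60 ± 0.11). MXD4 was higher with sanguinarine than with cepharanthine (0.74 ± 0.09) and evodiamine (0.87 ± 0.09), and higher with JQ1 than with panobinostat (2.21 ± 0.17). The change of MXD4 with sanguinarine was lower on top of JQ1 than alone (−1.63 ± 0.20). MYCL was lower with cepharanthine than with evodiamine (−0.75 ± 0.17). On top of panobinostat MYC fell, at 51.0 and 51.3 CPM in the combination against 101.8 and 99.3 CPM with panobinostat (−0.97 ± 0.13). On top of JQ1 it had −0.17 and did not pass, and the difference between these additions was 0.80 ± 0.18. Of 9 genes of the MYC network tested, 4 rose and 1 fell with sanguinarine, beside 22% higher and 19.8% lower among all genes.

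Counting limits apply to some of the members named. The tables do not state whether reads were counted by strand, and 18 of 40 members overlap a row on the opposite strand and 12 a protein-coding row, among them BOP1, NOP16, NOP56, RRN3 and GNL2. For BOP1 the overlapping gene SCX stood at no more than 2.41 CPM in any library. For GNL2, DNALI1 stood at no more than 0.424 CPM. PDXDC1, which overlaps RRN3, stood at 167.5 and 164.4 CPM with JQ1, against 89.8 and 89.4 CPM with panobinostat. HIGD2A, which overlaps NOP16, stood at 35.7 and 36.5 CPM with JQ1 and 35.55 and 44.6 CPM in sanguinarine with JQ1. XPO5, which overlaps POLR1C, stood at 136.3 and 136.2 CPM in the control. These values are per library total, and the part of such neighbours in the member counts was not tested.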

How the data were processed

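RNA was sequenced from poly(A)-selected libraries of 16 NCI-H1688 cultures, per the labels' protocols. The authors deposited whole-number read counts per gene and RPKM values in 2 tables, per the file headers, and RPKM recomputed from the counts differed by at most a relative 2e-13. Reads were mapped to GRCh38 with STAR 2.5.1 and tested with DESeq2, per the submitters' processing notes. No source used here names the counting tool, and positions in the tables differ from that build, so no coordinates from them are printed. No per-sample columns were left out (0).

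Counts were tested with edgeR 4.0.16 (quasi-likelihood, TMM, filterByExpr) in R 4.3.3, with a term per group, separately in each table (18756 and 21192 genes), and for the contrasts with sanguinarine alone in all 16 libraries (22263 genes). The separate fit was made the main one because the comparisons lie within tables and 1 second-table group had widely spaced duplicates. This choice was made knowing that the separate fit had called more genes than one fit of all 16 libraries for sanguinarine and cepharanthine. It also called more members in the first table, and in the second fewer. Counts from the single fit are given in the report where they differ by over 1.5 times. The members and lists were likewise chosen with earlier results of these data known, and so were the 13 comparisons. The second background, of highly counted genes, was added after the first was seen. The standard error is the absolute log2 change over the square root of the F statistic. Approximate 95% intervals follow from it and are pooled over groups. The labels call the duplicates biological. P-values were adjusted over all genes of each comparison. With 2 libraries a group, errors rest on the pooled spread. The models were also run on simulated counts. The spread simulated was smaller than that of the second table and of all 16 libraries together, so the simulation does not cover those fits. DESeq2 1.42.0, other scalings, no filter, other sets of libraries and leaving out each library were alternatives.

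Values by library are given for NCL, NPM1, FBL, DKC1, POLR1A and UBTF where they bear on a result. They are also given for the 3 members with the largest called change or interaction in a comparison and up to 3 called against the majority. Of the wider lists, the 2 largest called changes per comparison and MYC are named. Promoters are those of the 2 largest falls with sanguinarine with and without the E-box, outside chromosome 8. HMOX1, IDH3B, SCX, DNALI1, PDXDC1, HIGD2A and XPO5 were chosen after their values were seen.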

Additional observations from a re-analysis of the deposited data

Results flagged for a closer look

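Each value here is a difference between the effects of sanguinarine in 2 settings, found by a test of the difference itself in edgeR, on the log2 scale. Sanguinarine on top of JQ1, set against sanguinarine alone, differed by 1.04 for NOP16, 1.03 for NOP14 and 0.95 for RRP12. Sanguinarine on top of panobinostat, set against sanguinarine alone, differed by 1.29 for NOP56, 1.19 for BOP1 and 1.11 for NOLC1. Sanguinarine on top of JQ1, set against sanguinarine on top of panobinostat, differed by −0.95 for BOP1 and −0.95 for NOP56. These are 2 of 40 members, beside 6.02% of all genes, and leaving out 1 library at a time gave 0 to 8 calls, with 0 in 4 of the 8 cases. The table and the partner drug change together in the first 6 of these differences, and the part of the table in them was not tested.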

How the results depend on the processing

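Under the alternatives, 110 counts of members stayed within 1.5 times the reported count and 35 did not. Of the values of named members, 1149 kept direction and side of the threshold, 91 lost and 24 gained the call, and 26 changed sign. Of the median changes 140 moved by less than a bound taken from the duplicates, and 5 by more. With library totals the latter were sanguinarine (−0.30), sanguinarine against cepharanthine (−0.09) and evodiamine (−0.31) and JQ1 against panobinostat (−0.05). The last also moved by more (0.14) without panobinostat replicate 1. The bound was the largest median absolute log2 difference between duplicates among the groups compared, divided by the square root of 2. Genes with a mean count of at least 100 were used. That median was 0.31 for sanguinarine with panobinostat and 0.07 to 0.14 for the other groups, so comparisons with that group had a wide bound. One fit of all 16 libraries gave 4 for cepharanthine (3.56% of all genes changed), 3 for evodiamine (11.4%) and 8 for sanguinarine against cepharanthine (14.7%). It gave 10 for cepharanthine against evodiamine (14.1%), 11 for sanguinarine on JQ1 (30%) and 12 for sanguinarine on panobinostat (22.9%). Library totals gave 12 for sanguinarine against cepharanthine (34.2%) and 7 for sanguinarine on panobinostat (15.5%). Only the groups compared gave 12 for sanguinarine on JQ1 (42.5%) and 1 for sanguinarine on panobinostat (9.56%). That setting gave 31 for JQ1 against panobinostat (68.7%) and 10 for the combinations (44.4%). Without both libraries of sanguinarine with panobinostat, an alternative chosen after seeing the data, the count for sanguinarine on JQ1 was 11 (40%). There it was 30 for JQ1 against panobinostat (65%) and 27 for the JQ1 contrast (28.8%). The causes were not tested. Leaving out 1 library gave 36 to 38 for sanguinarine, 22 to 33 for cepharanthine, 7 to 13 for evodiamine, 13 to 23 for sanguinarine against cepharanthine, 35 to 38 against evodiamine and 16 to 24 for cepharanthine against evodiamine. It gave 0 to 2 for sanguinarine on JQ1, 0 to 22 on panobinostat, 12 to 15 for JQ1 against panobinostat, 11 to 23 for the combinations, 0 to 8 for the difference of additions, 13 to 17 for the JQ1 contrast and 16 to 32 for the panobinostat contrast. The replicate block gave 7 for sanguinarine on panobinostat (4 higher, 3 lower). In the second table the differences between replicates 1 and 2 correlated between groups at −0.04 to 0.11 over all genes tested. This gives no clear sign that the numbers pair libraries, but with low counts included it cannot exclude pairing. No paired analysis was possible in the first table because its titles share no replicate numbers. Library totals moved the median of all genes to 0.15 for sanguinarine (0.04 with TMM), to 0.17 for sanguinarine on panobinostat (0.00) and to −0.23 for the combinations (−0.04).

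Values near 0 changed sign. On JQ1, library totals gave 0.022 for DKC1 and 0.068 for POLR1A, which had 0.0042 with no filter and 0.0049 with the replicate block. Without 1 library these ranged over −0.11 to 0.0060 and −0.064 to 0.089. On panobinostat FBL had 0.0047 with DESeq2 or its size factors, 0.021 in one fit, 0.135 with library totals, 0.011 with no filter and −0.066 to 0.066 without 1 library, when NPM1 had −0.199 to 0.304 and DKC1 −0.199 to 0.238. For cepharanthine against evodiamine FBL had 0.0079 in one fit and −0.031 to 0.025 without 1 library. For the difference of additions, library totals gave −0.012 for FBL and −0.027 for NPM1, and leaving out 1 library −0.022 to 0.112 for FBL, −0.174 to 0.327 for NPM1 and −0.296 to 0.139 for DKC1. POLR1A between the combinations ranged over −0.081 to 0.133. Depth was at least 177 counts per member and library, and 2 libraries a group limit the errors.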
